A study of Homo sapiens with 9 samples.

Results

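The cytosolic ribosomal protein genes encode the proteins of the small (40S) and large (60S) subunits of the ribosome. They were taken from the table of counts by name: every symbol made of RPL or RPS, a number and at most a short suffix of A, X or L with a digit, together with RPLP0, RPLP1, RPLP2 and RPSA. This gave 83 of the 19969 symbols in the table, 51 of the large and 32 of the small subunit. RPL10L, a retrotransposed copy of RPL10, had 0 counts in all 9 libraries, and the other 82 members were tested in every comparison. The rule reads names and no measured value, though the group was chosen with earlier results of these data known.

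The study sequenced RNA of HEK293T, an established human embryonic kidney cell line, after removal of ribosomal RNA, and by its title concerns editing of N6-methyladenosine, a methyl mark on RNA, under red or far-red light. In 6 libraries the cells carried the FHY1-M3 construct together with a guide RNA (sgRNA): 2 libraries with the ACTB sgRNA, 2 with the con sgRNA and 2 with the non-target sgRNA. The other 3 libraries are labelled input, with no construct or guide named. No label states the light given, what sets con apart from non-target, or which RNA fraction, total or immunoprecipitated, went into the FHY1-M3 libraries. In the table of counts the con columns also carry the name ACTB. No label ties a replicate to a separate culture, and p-values therefore rest on a spread between libraries that could be technical only. Construct, guide and the kind of library differ together between FHY1-M3 and input and cannot be told apart.

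A ribosome holds one copy of nearly every ribosomal protein, while the proteins of the lateral stalk are present in several copies. The stalk recruits and activates the translation factors that hydrolyse GTP. Most ribosomal protein mRNAs begin with a terminal oligopyrimidine (TOP) tract, a C at the first base followed by further C and T, through which mTOR signalling and the RNA-binding protein LARP1 control their translation and stability. The mRNAs are short, abundant and long-lived in proliferating cells. Many of their genes carry small nucleolar RNAs in introns, and nearly all have given rise to processed pseudogenes. In bulk RNA, fewer cells with a transcript and less of it per cell cannot be told apart.

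Depth differed between the sides. Total counts ran from 2900021 to 3802681 in the FHY1-M3 libraries and from 350413 to 643954 in the inputs, of which members gave 203148 to 273803 and 26087 to 51263. ACTB mRNA, the namesake of the ACTB guide, stood at 1347 ± 51.7 CPM (SD, n = 2) with that guide, 1373 ± 2.77 with con and 1330 ± 11.5 with non-target. CPM are counts divided by the scaled library total and set to a common total for all libraries. The HEK293 markers VIM, NEFL, NEFM, CDH2, KRT8, KRT18 and PAX2 had counts in every library and none passed edgeR's test between FHY1-M3 and input, also at an unadjusted p of 0.05. Of markers of other cell types, PTPRC of leukocytes and CD3E of T cells were at 0 in all 9 libraries, HBB of red cells and PECAM1 of endothelium had at most 2 counts, and ALB of liver had at most 12. COL1A1, a collagen chain of fibroblasts and other mesenchymal cells, had 58 to 182 counts with FHY1-M3 and 22, 8 and 4 in the shallower inputs, and did not pass the test (adjusted p = 0.9797). The mitochondrially encoded mRNAs took 0.563% to 0.639% of counts with FHY1-M3 and 7.52% to 7.80% in the inputs. This share moved with the groups of every comparison against input below. When mitochondrial and histone genes were left out before scaling, 10 members rose and 39 fell, against 10 and 38 with them.

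The start of the transcript carries the feature that most members share, so the bases around it are shown for those whose levels are described below. Each is 30 bases of the coding strand, 10 before the RefSeq start (GRCh38.p14) and 20 from it, and capitals mark an unbroken run of at least 5 C and T that begins with C at the start. The 4 members printed first fell, the next 4 rose, and the remaining 4 are paralog pairs.
RPS13 (chr11:17077648-17077677, minus strand): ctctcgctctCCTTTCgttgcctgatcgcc
RPLP2 (chr11:809957-809986, plus strand): tcggcgccttCCTTTTCCTCCCTgtcgcca
RPL10 (chrX:154398367-154398396, plus strand): ggaggagcgcCTCTTTCCCTTCggtgtggt
RPS29 (chr14:49598691-49598720, minus strand): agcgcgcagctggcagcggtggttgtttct
RPS9 (chr19:54200848-54200877, plus strand): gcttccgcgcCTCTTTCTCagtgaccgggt
RPL3 (chr22:39319604-39319633, minus strand): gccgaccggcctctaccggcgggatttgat
RPS19 (chr19:41860245-41860274, plus strand): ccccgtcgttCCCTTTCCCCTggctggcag
RPL35 (chr9:124861938-124861967, minus strand): cgcctacttcCTCTTTCCCTCggagcgggc
RPL26 (chr17:8383174-8383203, minus strand): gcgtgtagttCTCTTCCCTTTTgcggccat
RPL26L1 (chr5:172958719-172958748, plus strand): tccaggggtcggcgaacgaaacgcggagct
RPS27 (chr1:153990752-153990781, plus strand): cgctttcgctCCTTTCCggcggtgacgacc
RPS27L (chr15:63157458-63157487, minus strand): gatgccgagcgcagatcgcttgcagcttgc
Runs of at least 5 stood at the start of RPS13, RPLP2 and RPL10 among those that fell, and of RPS9, RPS19 and RPL35 among those that rose. RPS29 and both paralogs RPL26L1 and RPS27L had none at the annotated start, and the run of RPL3 was 4 bases long. The motif searched was C at the start followed directly by C or T to a run of at least 5, read on the transcribed strand only, with the longest run taken where a gene has several starts. It was present in 47 of the 66 members that have an entry (71.2%) and in 1404 of 27305 genes of the same table (5.1%). The 17 members without an entry include RPL3L, RPL5, RPL7, RPL8, RPL23, RPL23A, RPL30, RPL37, RPL39L, RPS2, RPS15A and RPS20.

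Members together held a slightly smaller share of all counts with FHY1-M3 than in the inputs. Their share was 7.16% and 7.15% in the ACTB libraries, 7.20% and 7.10% in con, 7.10% and 7.01% in non-target, and 7.45%, 7.96% and 7.72% in the inputs. The mean was 7.12% ± 0.0674 (SD, n = 6) against 7.71% ± 0.258 (n = 3), and no FHY1-M3 library reached the lowest input. The large subunit gave 4.49% ± 0.0292 and 4.80% ± 0.177, and the small subunit 2.63% ± 0.0468 and 2.91% ± 0.0815. Counts of the large subunit were thus 1.68 to 1.76 times those of the small subunit with FHY1-M3 and 1.63 to 1.66 times in the inputs, without overlap. With mitochondrial and histone genes left out of the total, the shares were 7.17% ± 0.0684 and 8.43% ± 0.285.

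**Figure D1:**
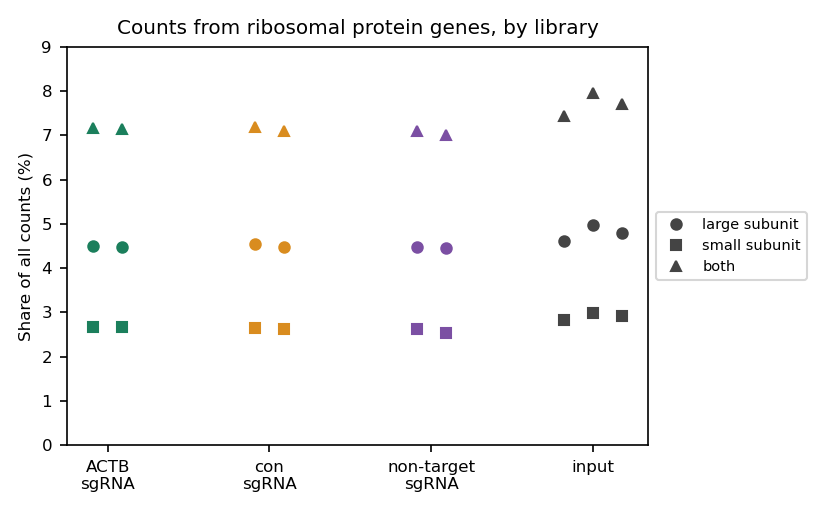
Share of all counts in percent (vertical axis) held by large subunit (circles), small subunit (squares) and all ribosomal protein genes (triangles) in each of the 9 libraries. Triangles of the 6 FHY1-M3 libraries lie between 7.005% and 7.20%, below the 3 inputs at 7.45% to 7.96%.

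Against input, more members fell than rose, most of them by a modest amount. Of the 82 tested, 38 fell (46.3%) and 10 rose (12.2%) at an adjusted p below 0.05 in edgeR's quasi-likelihood test, and 34 did not pass. Over all 13411 genes tested, 8.60% fell and 11.4% rose. Which direction had more calls over all genes depended on the scaling: 1153 fell and 1524 rose here, and 1343 fell and 1251 rose with median-ratio factors, where 44 members fell and 7 rose. The median log2 fold change of the members was -0.24, with quartiles of -0.47 and -0.04, against a median of 0.04 over all genes. In all, 66 of the 82 estimates were below 0. In 41 members the libraries of the sides did not overlap, which held for 23.4% of all genes. Since a test passes more readily where counts are high, the genes with a mean of at least 100 CPM were also taken alone. There, 34 of 73 members fell (46.6%) and 9 rose (12.3%), against 15.8% and 28.8% of 2493 genes (44.6% in either direction). The medians were -0.23 and 0.14. The FHY1-M3 libraries count towards that mean CPM, so the choice of these genes is not independent of the change. Falls outnumbered rises in each subunit: 17 of 32 small subunit members fell and 3 rose, with a median of -0.29, and 21 of 50 large subunit members fell and 7 rose, with a median of -0.23. Whether the subunits differ was not tested.

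**Figure D2:**
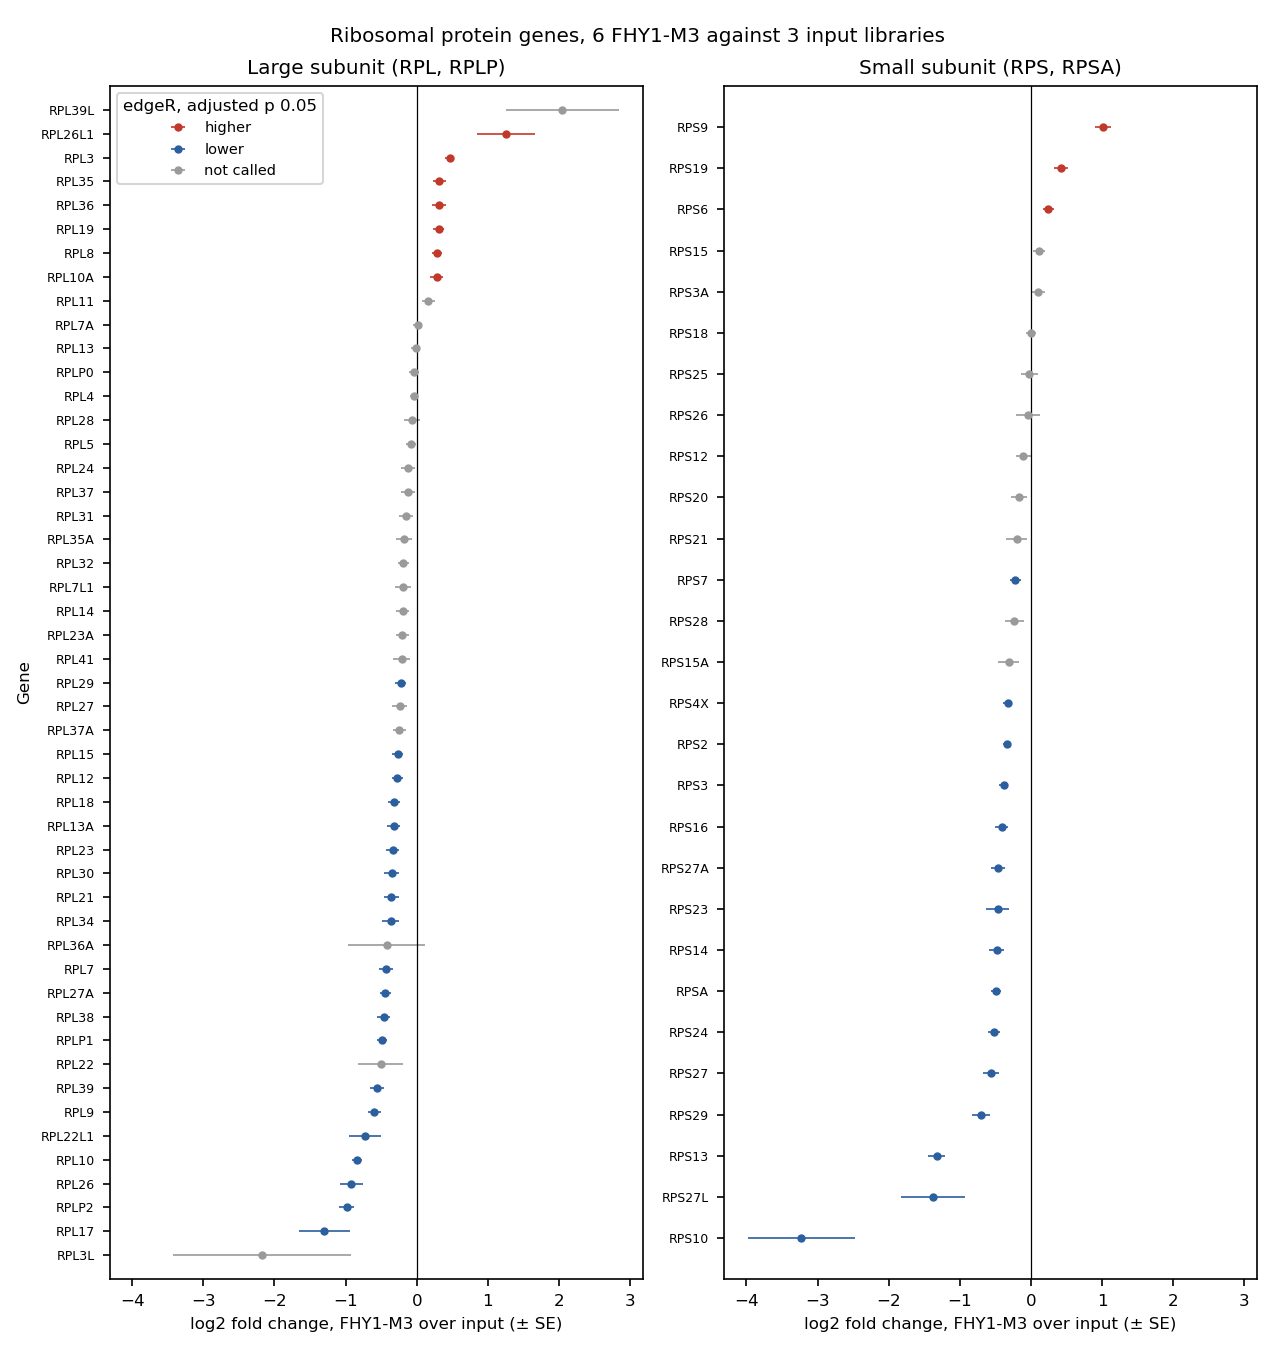
Log2 fold change of 77 of the 82 tested members, FHY1-M3 over input (horizontal axis), with its SE as a bar, large subunit on the left and small subunit on the right, coloured by edgeR's call at an adjusted p of 0.05. Most points lie a little to the left of 0, 35 of those drawn are called lower and 10 higher, and the widest bars belong to members with few counts such as RPL3L and RPS10.

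Among small subunit members with abundant reads, RPS13 fell most. RPS13 binds early to the central domain of the small subunit RNA, and its gene lies on chromosome 11 (17074388 to 17077667). Its level was 203 to 281 CPM over the FHY1-M3 libraries, with a median of 227, and 572, 535 and 653 CPM in the inputs. Every FHY1-M3 library lay below the lowest input, at means of 234 ± 29.3 (SD, n = 6) and 587 ± 60.7 CPM (n = 3). The log2 fold change was -1.33 (SE 0.123, adjusted p = 1.222e-10), or 2.51-fold lower. RPS29, a small zinc-binding protein of the head of the subunit (chromosome 14, 49570988 to 49598710), ranged from 224 to 323 CPM with a median of 297, against 399, 462 and 512 CPM. Its libraries did not overlap either, and its log2 change was -0.71 (SE 0.128, adjusted p = 9.04e-05). RPS27, another zinc-binding protein, had 296 to 384 CPM with a median of 351 against 497, 520 and 533 CPM (log2 change -0.56, adjusted p = 0.0003678). RPSA, also known as the laminin receptor precursor, had 1055 to 1188 CPM with a median of 1141 against 1446, 1651 and 1683 CPM. It fell by 0.49 on the log2 scale (SE 0.074, adjusted p = 4.762e-06), again with no overlap.

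Some members that passed the test had few counts. RPS10, which lies in the subunit head, had counts of 24 and 25 (ACTB), 17 and 37 (con), 1 and 2 (non-target) and 18, 10 and 6 in the much shallower inputs. Its log2 change was -3.23 (SE 0.75, adjusted p = 0.001824), and without input replicate 1 the call was lost (adjusted p = 0.0592). The RPS10 gene (chromosome 6, 34417454 to 34426069) overlaps the readthrough gene RPS10-NUDT3, and RPL17 and RPL36A likewise overlap readthrough genes of their own. All 3 readthrough rows were at 0 in every library. How the counting treated strand and overlap is not given in the sources used here, so reads shared by overlapping genes cannot be assigned, and 14 of the tested members overlap another gene of the table.

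Of the stalk proteins of the large subunit, RPLP2 and RPLP1 fell and RPLP0 did not pass the test. RPLP2, one of the acidic proteins at the tip of the stalk (chromosome 11, 809967 to 812876), had 403 to 479 CPM with a median of 448 over the FHY1-M3 libraries and 769, 1057 and 831 CPM in the inputs. Its libraries lay far apart, and its log2 change was -0.99 (SE 0.103, adjusted p = 1.987e-09). RPLP1, its partner at the tip, had 1065 to 1184 CPM with a median of 1104 against 1521, 1512 and 1647 CPM. It fell by 0.49 on the log2 scale (SE 0.073, adjusted p = 4.113e-06), without overlap. RPLP0, the base to which both bind, had 1792 to 2032 CPM with a median of 1914 against 1963, 1772 and 2123 CPM. These overlapped, and its log2 change of -0.04 (95% interval -0.17 to 0.10, adjusted p = 0.7611) took the opposite sign, at 0.01, when libraries were scaled by their totals alone.

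RPL10, which joins the large subunit last, next to the peptidyl transferase centre (chromosome X, 154398065 to 154402339), had the smallest p of all members. It had 1080 to 1224 CPM with a median of 1178 over the FHY1-M3 libraries and 2258, 1868 and 2115 CPM in the inputs. All 3 inputs lay clearly above, and the log2 change was -0.84 (SE 0.0714, adjusted p = 1.053e-11), or 1.79-fold lower. RPL9, which lies near the base of the stalk, had 556 to 625 CPM with a median of 592 against 853, 999.6 and 808 CPM (log2 change -0.59, adjusted p = 8.986e-06). RPL39, a very small protein lining the exit tunnel, had 480 to 588 CPM with a median of 532 against 757, 761 and 839 CPM (log2 change -0.56, adjusted p = 3.372e-05). Neither gene's libraries overlapped.

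Of the 10 members that rose, 7 belong to the large subunit, with RPS9 as the member of abundant reads that rose most. RPS9, which binds early in small subunit assembly and later lines the mRNA entry channel (chromosome 19, 54200858 to 54207647), had 611 to 686 CPM with a median of 641 with FHY1-M3. The inputs held 335, 315 and 308 CPM, so that each FHY1-M3 library had well above the highest of them. The log2 change was 1.02 (SE 0.109, adjusted p = 4.288e-09), or 2.02-fold higher. RPL3, which reaches the peptidyl transferase centre (chromosome 22, 39312882 to 39319623), had 2458 to 2618 CPM with a median of 2525 against 1807, 1837 and 1874 CPM. Both sides were tight and apart, with a log2 change of 0.46 (SE 0.0602, adjusted p = 3.533e-07). RPS19, a head protein mutated in Diamond-Blackfan anaemia (chromosome 19, 41860255 to 41872925), had 974 to 1122 CPM with a median of 1036 against 624, 936 and 763 CPM. Its lowest FHY1-M3 library lay close to input replicate 2, and its log2 change was 0.42 (SE 0.0962, adjusted p = 0.001532).

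Smaller rises without overlap were found for 4 large subunit members. RPL35, a protein of the tunnel exit, had 1188 to 1322 CPM against 801, 1133 and 1059 CPM (log2 change 0.32, adjusted p = 0.007595), and its call was lost without input replicate 1 (adjusted p = 0.0771). RPL19, which forms a bridge between the subunits, had 1467 to 1597 CPM against 1139, 1240 and 1331 CPM (log2 change 0.31, adjusted p = 0.002228). RPL8, a core protein near the peptidyl transferase centre, had 2333 to 2489 CPM against 1781, 2259 and 1887 CPM (log2 change 0.28, adjusted p = 0.002228). RPL10A, the protein of the L1 stalk, had 739 to 859 CPM against 567, 653 and 714 CPM (log2 change 0.28, adjusted p = 0.03531). The last of these was the least firm call, and 11 of 18 other settings or left-out libraries gave an adjusted p above 0.05. RPL36 and RPS6, the substrate of the S6 kinases, also passed the test, with log2 changes of 0.32 and 0.24, but their libraries overlapped.

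Input replicate 2 stood apart for RPL26 and RPL13A. RPL26, a protein at the exit tunnel, had 301, 881 and 565 CPM in the inputs against 250 to 369 CPM, with a median of 325, in the FHY1-M3 libraries. Input replicate 1 lay within the FHY1-M3 range and replicate 2 far above it. The log2 change of RPL26 was -0.92 (SE 0.160, adjusted p = 4.919e-05), and -0.48 without input replicate 2 (adjusted p = 0.0312). RPL13A, picked out after its values were seen, had 1966, 3400.3 and 2410.1 CPM in the inputs. Without input replicate 2, 28 members fell and 12 rose, and leaving out any other single library gave 30 to 35 lower and 6 to 9 higher.

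Several members exist as a pair of paralogs, and RPL26L1, RPS27L and RPL22L1 passed the test. A paralog is a related gene, and some paralogs can supply the same place in the ribosome. The share of the pair's counts that falls to the paralog needs no scaling between libraries. RPL26L1 (chromosome 5, 172954094 to 172969771) gave 10.4% to 16.1% of the counts of the pair with RPL26 in the FHY1-M3 libraries, and 2.703% to 5.46% in the inputs. Means were 13.5% ± 1.94 (SD, n = 6) and 3.68% ± 1.54 (n = 3). The input shares rest on only 6, 16 and 6 counts of RPL26L1, against 142 to 196 with FHY1-M3. RPL26L1 rose, from 17.3, 26.0 and 15.7 CPM in the inputs to 38.7 to 60.1 CPM with a median of 50.4 (log2 change 1.26, SE 0.401, adjusted p = 0.02278), while RPL26 fell as given above. The call of RPL26L1 was lost without ACTB replicate 1, con replicate 2, non-target replicate 2 or input replicate 3, at adjusted p-values from 0.0536 to 0.0732.

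RPS27L, a p53-inducible paralog of RPS27 (chromosome 15, 63148249 to 63157477), also fell. Its counts were 40, 46, 54, 87, 44 and 66 with FHY1-M3 and 10, 28 and 18 in the inputs, and its log2 change was -1.38 (SE 0.448, adjusted p = 0.02521). It gave 2.797% to 6.13% of the pair with FHY1-M3 and 5.495% to 8.11% in the inputs, which overlapped. The call of RPS27L was lost without ACTB replicate 1, con replicate 1, non-target replicate 1, input replicate 2 or input replicate 3, at adjusted p-values from 0.0566 to 0.0944. RPL22L1, which gave 65.7% ± 8.24 of the counts of its pair with FHY1-M3 and 68.4% ± 5.76 in the inputs, fell by 0.72 on the log2 scale (SE 0.229, adjusted p = 0.0213) with overlapping libraries. That call was lost without con replicate 1, non-target replicate 1, input replicate 2 or input replicate 3, at adjusted p-values from 0.053 to 0.175. RPL22 had a log2 change of -0.51 and did not pass (adjusted p = 0.272).

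The remaining paralogs were not called. RPL39L, known from testis and some tumours, had 50, 68, 56, 56, 26 and 118 counts with FHY1-M3 and 0, 4 and 2 in the inputs. That is 1.33% to 6.90% of the pair with RPL39 against 0% to 0.847%, without overlap, and the log2 change was 2.04 (SE 0.795, adjusted p = 0.06463). It passed without non-target replicate 1 (adjusted p = 0.0354) and without a filter on low counts (0.0449). RPL7L1, a nucleolar assembly factor related to RPL7, gave 38.0% ± 2.65 and 34.3% ± 5.10 of its pair. Its log2 change was -0.20 (adjusted p = 0.2429), while RPL7 fell by 0.43 on the log2 scale (adjusted p = 0.0008501). RPL3L, the striated muscle paralog of RPL3, gave at most 0.274% of its pair with FHY1-M3 and at most 1.26% in the inputs (log2 change -2.18, SE 1.25, adjusted p = 0.2301).

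**Figure D3:**
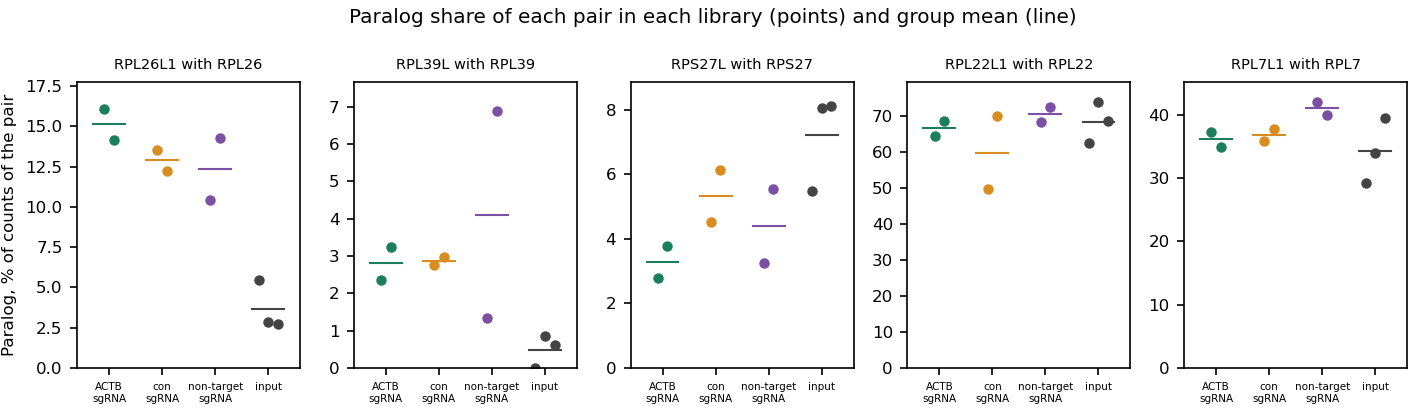
Counts of the paralog as a percentage of the counts of the pair (vertical axes, from 0) in each library as points, with group means as lines, for 5 pairs. RPL26L1 takes 10.4% to 16.1% with FHY1-M3 and 2.703% to 5.46% in the inputs, whereas the shares of RPL22L1, RPL7L1 and RPS27L overlap between the sides. The input points of RPL26L1 rest on 6, 16 and 6 counts.

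Features that the names did not use sorted the members only weakly. Of the members with an annotated start, the pyrimidine run of at least 5 stood in 24 of 31 that fell, 5 of 9 that rose and 18 of 25 not called. The median log2 change was -0.32 over the 47 tested members with the run and -0.21 over the 18 without. The 29 members with a small nucleolar RNA gene lying within their span, on either strand, had a median of -0.27, with 16 lower and 1 higher. The 53 others had -0.23, with 22 lower and 9 higher. Members with more pseudogenes of any kind named after them than the median of 15.5 had a median log2 change of -0.33, against -0.20 for the rest. Pseudogene copies can take reads from a member or give reads to it, depending on how multiply mapped reads were counted, which is not given in the sources used here. Across members, Spearman's rho of the log2 change was -0.07 with run length (n = 65), -0.06 with the length of the gene and -0.15 with the number of pseudogenes (n = 82). It was 0.36 with the mean level, and 0.30 over the 73 members with a mean of at least 100 CPM. That mean includes the FHY1-M3 libraries and so is not independent of the change. Members share libraries and are not independent, so these are descriptions.

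Between the guides, few ribosomal protein genes passed a test. With the ACTB guide against the non-target guide, DESeq2 called 2 members higher and 1 lower, beside 22 higher and 52 lower of all 12808 genes. In edgeR's test, 9 of 82 members and 1001 of all genes had an unadjusted p below 0.05. By adjusted p that test called 1 of 82 members higher and none lower. The background was 32 of 12808 genes (0.250%), with 0.0547% higher and 0.195% lower. That single call was lost when either ACTB replicate or non-target replicate 1 was left out.

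Among the smallest p-values in that comparison were those of RPS2, a protein at the mRNA entrance of the small subunit, and of RPL29. RPS2 had 4214 and 4091 CPM with the ACTB guide against 3990.1 and 3451 with non-target. Its log2 change of 0.16 (SE 0.0427, adjusted p = 0.1357) passed the threshold without con replicate 1 (0.0104), con replicate 2 (0.0113) or non-target replicate 1 (0.00434). Without the last of these libraries the change was 0.27. RPL29 had a log2 change of 0.25 with an adjusted p of 0.138, which passed in DESeq2 (0.0322) and without non-target replicate 2 (0.0271). DESeq2 also called RPL26 lower, with a log2 change of -0.43 (adjusted p = 0.04001), against -0.42 and an adjusted p of 0.260 in edgeR. RPS10, picked out after its values were seen, had counts of 24 and 25 against 1 and 2, with an adjusted p of 0.474.

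The other pairs of guides gave no call. ACTB against con had 0 of 82 members past the threshold in edgeR and in DESeq2. Of all genes, edgeR called 0.0312%, with 0.0156% higher and 0.0156% lower. An unadjusted p below 0.05 was found for 9 members and for 494 of all 12808 genes. Smallest in p were RPL26, with a log2 change of -0.42, and RPLP0, with 1958 and 2032 CPM against 1792 and 1817 CPM and a log2 change of 0.15 (adjusted p = 1 for each). Con against non-target also had 0 in edgeR and in DESeq2, beside 0.172% of all genes called by edgeR, 0.00781% higher and 0.164% lower. Here 5 members and 673 of all 12808 genes had an unadjusted p below 0.05. Among the smallest p-values there was that of RPL7L1, with 367 and 376 CPM against 469 and 445 CPM (log2 change -0.30, adjusted p = 0.787). The 3 comparisons share libraries with one another. Members whose libraries did not overlap numbered 36, 36 and 30 of 82, against 35.1%, 34.2% and 34.8% of all genes, and the medians of the members were -0.02, 0.00298 and 0.0034.

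**Figure D4:**
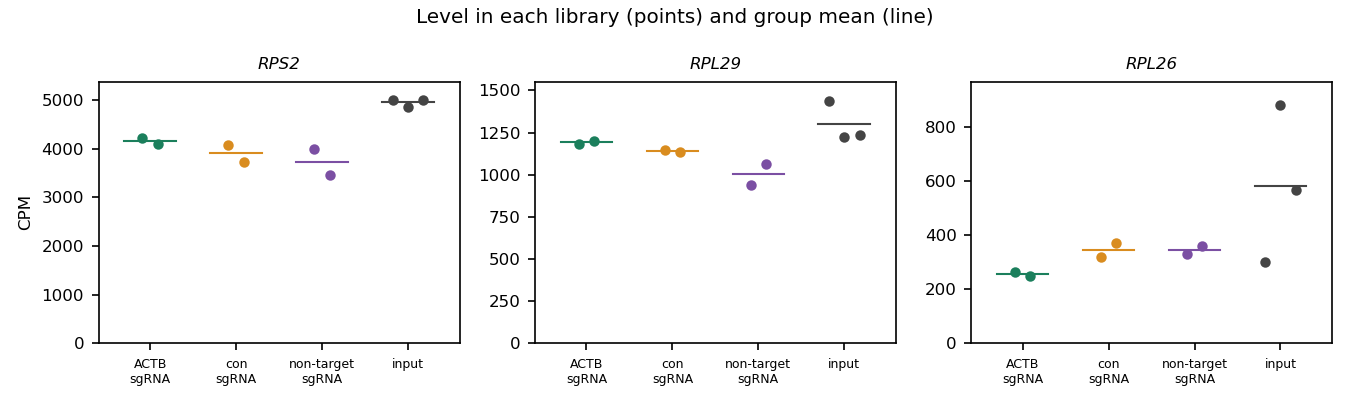
CPM (vertical axes, from 0) in each library as points, with group means as lines, for RPS2, RPL29 and RPL26. RPS2 lies at 4214 and 4091 CPM with the ACTB guide and 3990.1 and 3451 CPM with the non-target guide, and RPL26 shows the spread of the inputs from 301 to 881 CPM.

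Other genes of the ribosome's pathway give these values a setting, all for FHY1-M3 against input, where 11.4% of all genes rose and 8.60% fell (28.8% and 15.8% from a mean of 100 CPM upward). Of ribosomal proteins whose names fall outside the rule, 4 were tested, of which 2 fell (50%) and 1 rose (25%). RACK1, which sits on the small subunit and docks signalling kinases, fell by 0.67 on the log2 scale (adjusted p = 4.361e-12). FAU, a ubiquitin-like fusion of the small subunit, rose by 0.47 (adjusted p = 0.04695), and RPL36AL did not pass. Of 18 tested mRNAs of other known TOP genes, 7 fell (38.9%) and 3 rose (16.7%), with a median of -0.10. The lowest were the initiation factor subunit EIF2S3 (-1.18), the poly(A)-binding protein gene PABPC1 (-0.98), EIF3E (-0.77) and NAP1L1 (-0.65). Of 42 genes of ribosome biogenesis, 21 rose and none fell in edgeR's test. These genes encode the nucleolar and nuclear machinery that processes ribosomal RNA and builds the subunits. Their median log2 change was 0.66, and 26 had an unadjusted p below 0.05, as did 4284 of all 13411 genes. RRP9 (2.01), BYSL (1.78), EBNA1BP2 (1.498) and UTP14A (1.41) had the highest log2 changes of those called. Their input counts were low, at 6, 2 and 6 for RRP9 and 10, 26 and 18 for BYSL. EBNA1BP2 had 14, 36 and 16 counts there, and UTP14A 8, 52 and 33. Of 14 regulators of TOP mRNAs, 3 rose (21.4%) and 2 fell (14.3%): the kinase MTOR (0.88), its partner RPTOR (0.72) and LARP4 (0.64) were higher, and the cap-binding protein EIF4E (-1.40) and its inhibitor EIF4EBP2 (-1.09) were lower. Of 76 proteins of the separate mitochondrial ribosome, 10 rose (13.2%) and 5 fell (6.58%), close to the shares over all genes, with a median of 0.19. These lists were not compared with one another by a test.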

How the data were processed

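The authors deposited read counts, whole numbers for each gene symbol in 9 libraries, which the values show as not normalized. Per the submitters' processing notes, cutadapt 4.3, STAR 2.7.10b and deepTools were used with the build hg38. The counting tool is not given in the sources used here, nor are its strand setting and annotation. Among values of 1 to 20 counts, 88.5% to 95% per library were even, so both mates of a pair appear to have been counted and counting precision is lower than the counts imply.

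Groups were taken from the sample titles. Genes were tested with the two-sided quasi-likelihood F test of edgeR 4.0.16 (R 4.3.3) after filterByExpr and TMM scaling, in 1 fit of all 9 libraries for FHY1-M3 against input (13411 genes) and 1 fit of the 6 FHY1-M3 libraries for the guides (12808 genes). Adjusted p-values are Benjamini-Hochberg values over all genes tested, with a threshold of 0.05, and adjusted p-values in the text are from this test unless DESeq2 (1.42.0) is named. Each SE is the absolute log2 fold change over the square root of its F value. Levels are CPM on the TMM-scaled totals. The scripts were tested on simulated data.

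The members and lists were chosen with earlier results of these data known. Members were named by rule: up to 10 per direction by size of change, out of members that passed, averaged 5 CPM or more and had libraries that did not overlap; the stalk genes, RPSA and paralogs with their partners; for each pair of guides, members called and the 2 smallest p-values; and up to 4 genes of each other list. Some members and other genes are counted but not reported here by name. Alternatives were other scaling, filters, halved or thinned counts, DESeq2, a replicate block and each library left out. Promoter windows and gene coordinates are from RefSeq tables of GRCh38.p14. No pair of replicates agreed within sampling noise (chi-square over its degrees of freedom 1.8 to 5.12, halved counts).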

Additional observations from a re-analysis of the deposited data

Results flagged for a closer look

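RPL22 had 61.1 CPM in con sgRNA replicate 1, while the other 5 FHY1-M3 libraries held 36.7 to 45.4 CPM. The gap to the nearest library was 0.644 of the whole range of the 6 libraries, past Dixon's 95% critical value. RPL22 binds RNA of the large subunit. The share of RPL22L1 in the pair was lowest in this library, at 49.8%, but RPL22 counts enter that share. RPL22L1 itself had 60.6 CPM there and 76.8 to 101.8 CPM in the other FHY1-M3 libraries. In all, 31 values were looked at in this way, and chance alone flags about 1 in 20 groups.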

How the results depend on the processing

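Against input, 38 members fell and 10 rose in the reported fit. Elsewhere, 33 to 46 fell and 7 to 11 rose under other scaling, filters, thinning to 462026 counts or DESeq2, and leaving out 1 library at a time gave 28 to 35 lower and 6 to 12 higher. Each guide alone was also set against input, chosen after seeing the data. This gave 24 lower and 5 higher for ACTB, 22 lower and 7 higher for con, and 27 lower and 6 higher for non-target. Over all 13411 genes, 532 were lower and 945 higher for ACTB, 566 and 968 for con, and 613 and 1086 for non-target. These contrasts share the same inputs and are not independent. The fit still held all 9 libraries, with fewer of them in each contrast. Under all 21 settings, 17 of the 38 lower and 4 of the 10 higher calls held. The median of the members was -0.19 with library totals, -0.32 with median-ratio factors, and -0.34 after thinning, and that of all genes moved with it, from 0.04 in the reported fit to 0.09, -0.04 and -0.02, so the members lay 0.28, 0.28 and 0.32 below it. RPLP0, never called, changed sign to 0.0149 with library totals, 0.0291 with the replicate block, -0.108 to 0.0268 with 1 library left out (above 0 without input replicate 3) and 0.0329 for the ACTB guide alone; the cause was not tested. For ACTB against non-target, 1 member was higher in the reported fit, 2 without a filter on low counts (RPS2 among them), 2 higher and 1 lower in DESeq2 (RPL29 among the higher, RPL26 lower), 0 in the fit of all 9 libraries, and 0 to 2 with 1 library left out. The share of counts without mitochondrial and histone genes was 7.21% for ACTB and 8.43% for input, by its smaller denominator. With the replicate number as a block, 34 members fell and 8 rose against input, where input replicate 3 has a level of its own and adds nothing, and 2 were higher in ACTB against non-target (RPS2 among them). Correlations between groups in how same-numbered libraries deviated ran from -0.0123 to 0.00948 over all genes. Over the members these correlations ran from -0.42 to 0.542, without one sign. Whether same-numbered libraries belong together as pairs was not tested. The inputs hold the fewest counts and set the precision of every comparison with them.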
